A study of Mus musculus with 30 samples.

Results

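The genes described here differed between the CC019/TauUnc and CC037/TauUnc mouse strains in one direction and between the alleles of these strains in their F1 hybrids in the other. Each member was autosomal, was assigned to the strain's own allele for at least 90% of allelic counts in each inbred, and averaged at least 1 CPM (read counts scaled to the mouse's total) over 29 mice. S denotes the log2 of mean total CPM in the CC019 inbreds minus that in the CC037 inbreds, and A denotes the log2 of mean CC019 allele CPM minus that of the CC037 allele in the F1s, each with 0.05 CPM added. Members had S and A of opposite sign and both at least 0.2 in size. The rule took 150 of 3934 analyzable autosomal genes (3.81%), among 42880 genes in the files, and 142 of the 150 were protein-coding. S and A chose the members, so both are given as descriptions without a test.

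RNA was sequenced from the median liver lobe of mice aged 4 months, as poly(A)-selected and stranded libraries, in a study of how genotype and parent of origin shape methylation and expression. CC019/TauUnc (3 males, 3 females) and CC037/TauUnc (4 males, 5 females) are inbred strains of the Collaborative Cross, a recombinant inbred panel bred from several founder strains. Both reciprocal F1s were profiled, with the maternal strain written first: CC019/TauUnc x CC037/TauUnc (3 males, 3 females used) and CC037/TauUnc x CC019/TauUnc (3 males, 5 females). A further CC019/TauUnc x CC037/TauUnc female was left out by the rule. Mice of an inbred strain are near-identical in genotype, so each strain stands for 1 genotype only, and RNA of the inbreds and of the F1s was sequenced in separate batches. S was therefore taken within one batch and A within the other, while batch and generation cannot be told apart in a comparison of F1s with inbreds. The paper also sequenced some inbreds in both batches and reports that they grouped by mouse and allele, not by batch. Only 1 library per mouse was used here.

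In an F1 hepatocyte both alleles of a gene share the same nucleus and the same regulatory proteins, so a difference between them reflects sequence or chromatin carried on each chromosome (cis). A difference between inbred strains adds whatever differs in the rest of the genome and body (trans). Where the allele of the higher strain is the lower allele in the F1, cis and trans contributions are usually described as opposing each other.

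Total counts ran from 27672008 to 63258035 per mouse. Several inbreds stood apart from their groups. CC019 male 3 had the highest total of its strain for Cxcl1, Socs3, Bcl3 and Lpin1, which are described below. CC019 female 2 held 8867 CPM of 4 exocrine pancreas markers, against 9.64 to 664 CPM in the other CC019 mice, and CC037 female 3 had the lowest summed level of 5 hepatocyte markers (66349 CPM). A clock gene score, in which the averaged log2 CPM of Arntl, Clock and Npas2 was taken from that of Ciart, Dbp and Tef, ran from 1.72 to 3.35 in CC019 inbreds, from -1.62 to 2.06 in CC037 inbreds and from -3.29 to 3.28 in F1s. With the score as a covariate, 127 of the 150 members kept both signs, but only 93 (62.0%) stayed within the rule. This fit averaged log2 values of single mice, while S and A take the log2 of a mean. The parts of the score and of the averaging were not told apart. Without the 3 inbreds that stood apart 141 kept both signs and 124 (82.7%) stayed within the rule.

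Among 1215 analyzable genes whose differences both reached 0.2, 1065 (87.7%) had the same sign and 150 (12.3%) opposite signs. The CC019 strain was lower and the CC019 allele higher in 102 members, and the reverse held in 48. Differences were small, with a median size of S of 0.38 and of A of 0.36, against 0.55 and 0.46 in the 1065 genes of matching sign. Members were also expressed at lower levels and varied more between mice of a strain. Their median mean level was 10.1 CPM and their median coefficient of variation within a strain was 30.01%, against 15.2 CPM and 18.7% in genes of matching sign and 20.4 CPM and 15.4% in all analyzable genes.

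**Figure D1:**
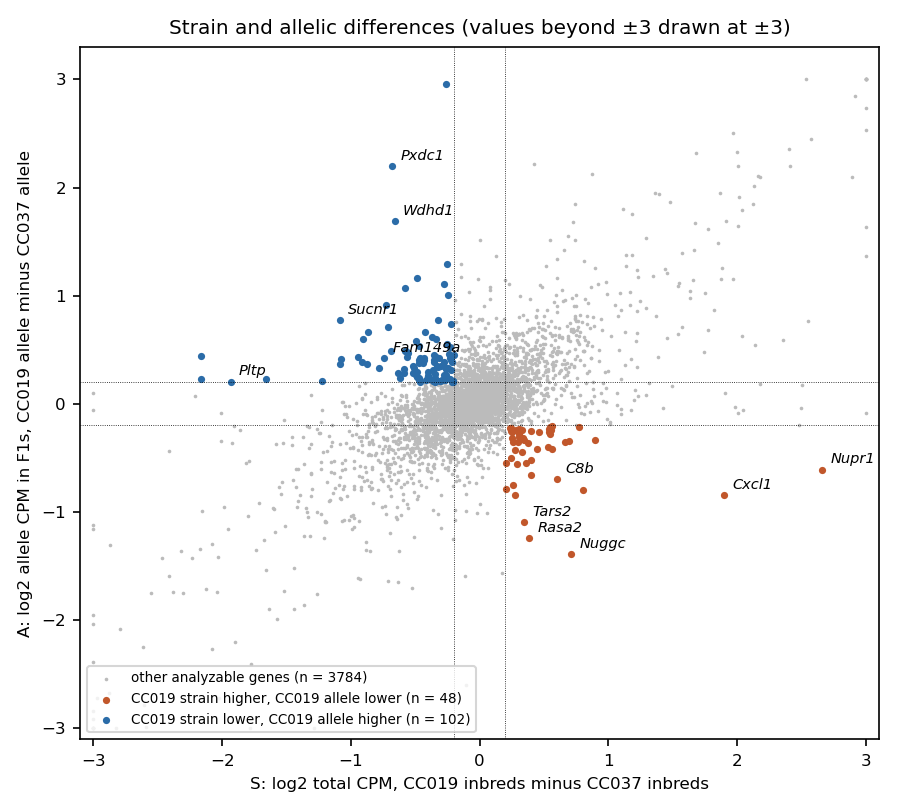
S (horizontal axis, log2 of total CPM, CC019 inbreds minus CC037 inbreds) against A (vertical axis, log2 of allele CPM, CC019 allele minus CC037 allele in 14 F1s) for 3934 analyzable genes, with dotted lines at 0.2 and values beyond 3 drawn at 3. The 102 members at the upper left had a lower CC019 strain and a higher CC019 allele, and the 48 at the lower right the reverse; most other genes lie in a band from the lower left to the upper right.

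Few members had inbred strains that separated. Totals of the strains did not overlap in 5 members (3.33%; 11.9% of analyzable genes), namely Fam149a, Tars2, Tmem106b (chosen by this count), Pltp and the long noncoding RNA 1810008I18Rik. The allelic difference had one sign in all 14 F1s in 36 members (24.0%; 22.8% of analyzable genes), and CC019 and CC037 allele levels did not overlap between F1s in 7 members (4.67%; 5.59% of analyzable genes). Only Fam149a and Tars2 combined separated strains with a single allelic sign (1.33%; 7.27% of analyzable genes). When each mouse was left out in turn, 65 members (43.3%) stayed within the rule throughout. The sign of S was the same in males and females in 110 members (73.3%; 91.4% of genes of matching sign and 2489 of the 3934 analyzable genes). That of A was the same in both cross directions in 136 (90.7%; 98.4% of genes of matching sign and 79.5% of analyzable genes).

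At the edge of the rule, Lacc1 (S -0.20) and Zmat2 (S 0.20) lay just inside the limit on S, while Pogz (S -0.20) and Csrnp1 (S 0.19) lay just outside it. On A, Pxylp1 (A 0.20) and Pltp (A 0.21) lay inside, and Vwce (A 0.20) and Cyp7b1 (A -0.20) outside.

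Fam149a, a gene of poorly known function on chromosome 8 (45336717 to 45382291, GRCm38), had total levels of 24.6 to 37.4 CPM in CC019 inbreds (median 29.1) and of 37.4 to 63.6 CPM in CC037 inbreds (median 44.4). In F1s the CC019 allele gave 16.7 to 34.9 CPM (median 22.1) and the CC037 allele 13.6 to 26.1 CPM (median 17.4), with the CC019 allele higher in 14 of 14 mice. S was -0.74 and A 0.42. The allele of the lower strain was thus the higher allele in every hybrid, although the ranges of the alleles overlapped.

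Tars2, the mitochondrial threonyl-tRNA synthetase, showed the opposite arrangement. CC019 inbreds had 32.6 to 45.4 CPM (median 36.5) and CC037 inbreds 27.2 to 31.3 CPM (median 30.4). The CC019 allele gave 8.68 to 18.3 CPM in F1s (median 11.9) and the CC037 allele 21.5 to 33.2 CPM (median 26.0), without overlap. S was 0.34 and A -1.10, so the allele of the higher strain was the lower allele by more than the strains differed. The neighbouring gene Ecm1, chosen after its values were seen, which encodes extracellular matrix protein 1 and lies 0.407 kb from Tars2 on chromosome 3, was a member in the other direction (S -0.26, A 0.24).

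Sucnr1, the G protein-coupled receptor for succinate, ranked 3 among members by the smaller of its differences. Its total was 10.9 to 20.8 CPM in CC019 inbreds (median 15.7) and 17.5 to 48.9 CPM in CC037 inbreds (median 34.3). The CC019 allele was the higher in all 14 F1s, with 8.32 to 43.6 CPM (median 23.9) against 3.31 to 30.2 CPM (median 11.4) from the CC037 allele. S was -1.09 and A 0.78, with S of -1.09 in females and -1.14 in males, so the strain difference was alike in both sexes.

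Among the members named here, Pxdc1 and Wdhd1 had the largest allelic differences. Pxdc1, a PX domain gene on chromosome 13, had 46.5 to 80.4 CPM in CC019 inbreds (median 60.2) and 67.2 to 127 CPM in CC037 inbreds (median 100.5), which overlapped. Its CC019 allele gave 73.5 to 156 CPM in F1s (median 87.1) and its CC037 allele 9.43 to 27.9 CPM (median 19.9). The alleles did not overlap, and A was 2.20 in females and in males alike, with S of -0.68.

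**Figure D2:**
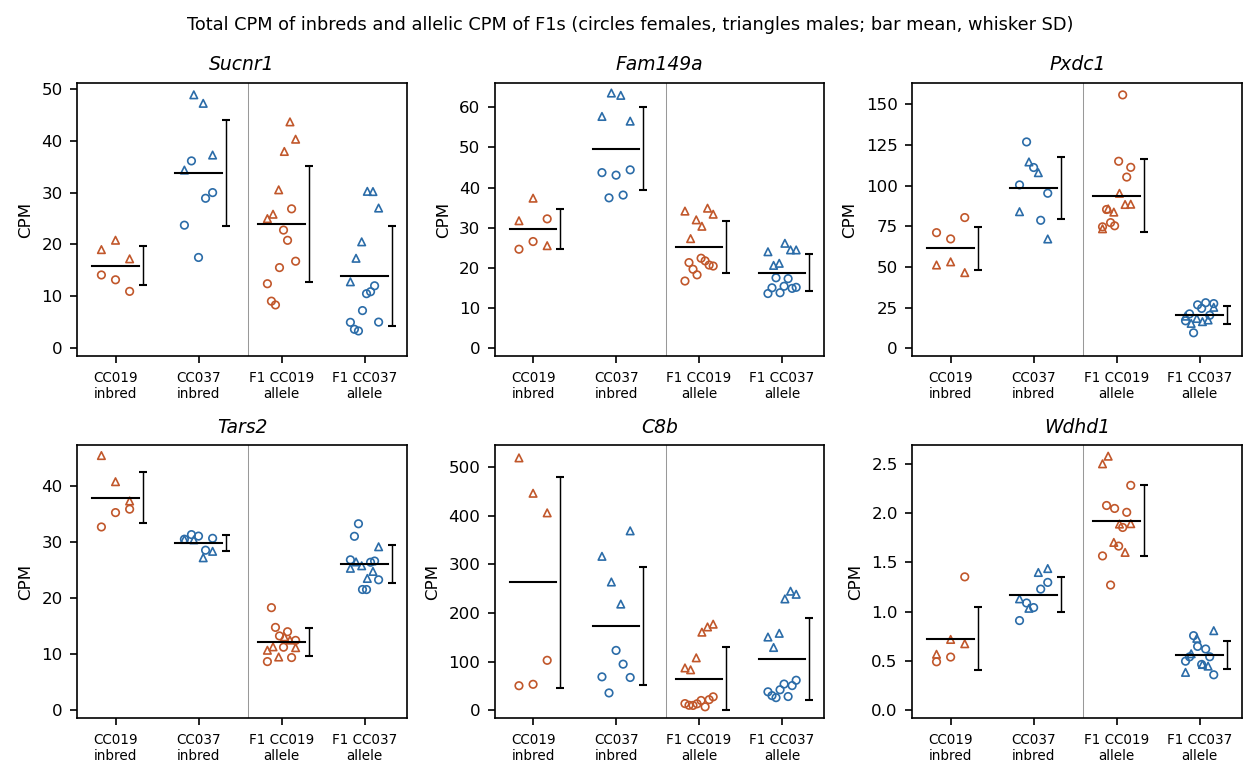
Total CPM of each inbred and allelic CPM of each F1 for 6 members (linear axes; circles females, triangles males; bars are means and whiskers SD; inbreds at left and F1 alleles at right of the grey line). The CC037 allele of Pxdc1 sits at 9.43 to 27.9 CPM in F1s while inbreds of both strains lie above 46 CPM, and for Tars2, Pxdc1 and Wdhd1 the alleles do not overlap.

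Several members with a large smaller difference were low or uneven between mice. Trpm6, a magnesium channel, had S of 0.80 and A of -0.80, with 0.126 to 3.13 CPM in CC019 inbreds (median 1.52) and 0.275 to 2.07 CPM in CC037 inbreds (median 0.673). Cacna2d1, an auxiliary subunit of calcium channels, had 0.348 to 1.22 CPM (median 0.850) and 0.344 to 7.31 CPM (median 0.708), and its S of -0.73 became 0.30 without CC037 female 1, which held the 7.31 CPM. Npnt, an extracellular matrix ligand of integrins, had S of -0.86 and A of 0.66, with 0.515 to 4.55 CPM (median 1.33) and 1.13 to 9.56 CPM (median 2.51). The strains of these genes overlapped, and 9, 11 and 11 of the 14 F1s had the sign of A.

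Col11a2, a fibrillar collagen chain, was also low but had narrower ranges. It had 0.708 to 1.19 CPM in CC019 inbreds (median 0.831) and 0.917 to 2.13 CPM in CC037 inbreds (median 1.33). S was -0.71 and A 0.71, and its strain difference changed with sex (interaction -0.97 ± 0.33, SE, adjusted p = 0.038, edgeR). Grik5, a glutamate receptor subunit, had 5.12 to 13.6 CPM (median 8.13) and 10.2 to 15.7 CPM (median 10.7), with S of -0.50 and A of 0.58, and Trmt9b, a methyltransferase-like gene, S of -0.91 and A of 0.60. Afap1l2, an adaptor of Src signalling, had S of 0.40 and A of -0.52. Allelic ranges overlapped for all 4 genes. Nuggc, a nuclear GTPase of germinal centre B cells, reached 5.47 CPM in CC019 inbreds and 4.80 CPM in CC037 inbreds from lowest values of 0.172 and 0.109 CPM, with S of 0.71 and A of -1.39.

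Cxcl1, Socs3, Bcl3 and Lpin1 were 4 members whose S turned without a single mouse. Cxcl1, a neutrophil-attracting chemokine, had 1.59 to 147 CPM in CC019 inbreds (median 4.66) and 2.26 to 33.8 CPM in CC037 inbreds (median 3.91). CC019 male 3 held the 147 CPM and CC037 female 3 the 33.8 CPM. S was 1.9 and A -0.84, and S was -0.65 without CC019 male 3. In the F1s the CC037 allele was higher in 14 of 14 mice, at 0.4996 to 5.14 CPM (median 2.35) against 0.0944 to 3.19 CPM (median 1.20).

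Socs3, a feedback inhibitor of cytokine signalling, had 9.83 to 65.1 CPM in CC019 inbreds (median 15.7) and 9.33 to 29.2 CPM in CC037 inbreds (median 15.3). Bcl3, an atypical member of the I kappa B family that acts in the nucleus, had 22.9 to 117 CPM (median 26.1) and 17.8 to 38.1 CPM (median 28.4). Lpin1, a phosphatidate phosphatase and transcriptional coactivator of lipid metabolism, had 33.1 to 476 CPM (median 36.9) and 44.9 to 193 CPM (median 72.7). For these 3 genes the highest value was again that of CC019 male 3, and leaving that mouse out turned S from 0.40 to -0.27 for Socs3, from 0.56 to -0.07 for Bcl3 and from 0.45 to -0.91 for Lpin1. Their A was -0.66, -0.42 and -0.42, with the CC037 allele higher in 14, 14 and 13 of 14 F1s. In all, 8 members (5.33%) changed the sign of S without CC019 male 3, the others being Gcnt4, Gja4, Gm15889 and Pfkfb3.

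**Figure D3:**
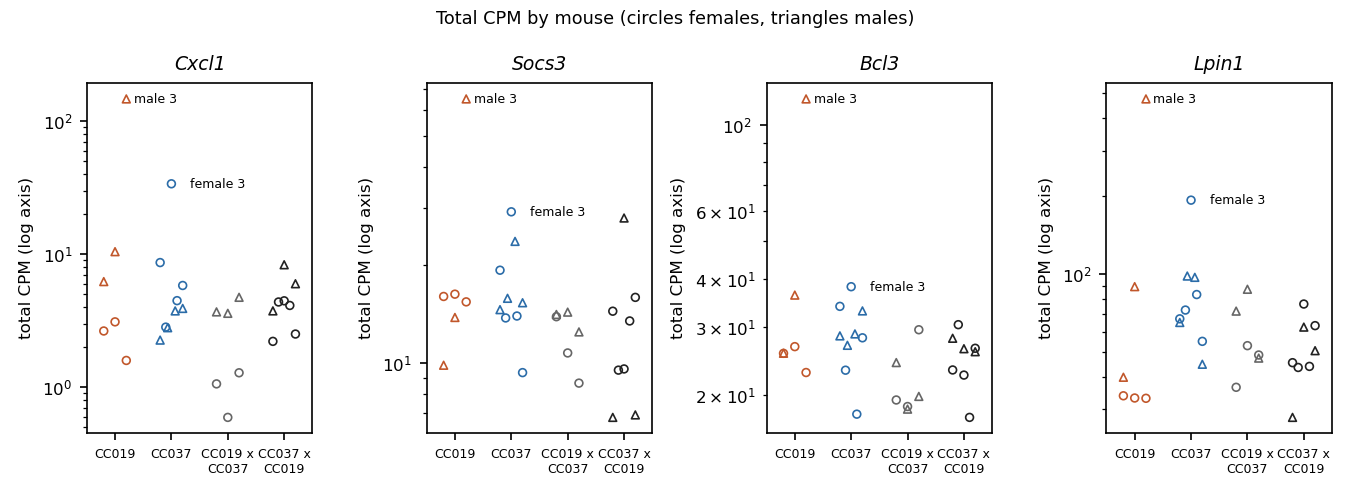
Total CPM (log axis) of Cxcl1, Socs3, Bcl3 and Lpin1 in each mouse by strain or cross (circles females, triangles males). CC019 male 3 is the highest of the CC019 inbreds for all 4 genes (147, 65.1, 117 and 476 CPM) and CC037 female 3 the highest of the CC037 inbreds.

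The promoters of Cxcl1, Bcl3 and Socs3 are shown because these genes shared their highest mouse and are known targets of NF-kB or STAT factors. That of Lpin1 is not shown. The sequences come from RefSeq (GRCm38.p6, 250 bases before to 50 bases after the start, written 5′ to 3′ on the gene's strand). Capitals mark matches to the NF-kB consensus motif in Cxcl1 (chr5:90890995-90891294, plus strand) and Bcl3 (chr7:19822706-19823005, minus strand) and to the STAT motif TTCNNNGAA in Socs3 (chr11:117969317-117969616, minus strand), searched on both strands.
Cxcl1: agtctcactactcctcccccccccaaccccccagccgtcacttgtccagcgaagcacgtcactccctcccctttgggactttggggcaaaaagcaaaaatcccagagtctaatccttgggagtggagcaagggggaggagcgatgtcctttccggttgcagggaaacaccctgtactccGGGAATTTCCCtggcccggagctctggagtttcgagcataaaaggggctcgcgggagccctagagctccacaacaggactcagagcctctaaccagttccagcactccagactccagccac
Bcl3: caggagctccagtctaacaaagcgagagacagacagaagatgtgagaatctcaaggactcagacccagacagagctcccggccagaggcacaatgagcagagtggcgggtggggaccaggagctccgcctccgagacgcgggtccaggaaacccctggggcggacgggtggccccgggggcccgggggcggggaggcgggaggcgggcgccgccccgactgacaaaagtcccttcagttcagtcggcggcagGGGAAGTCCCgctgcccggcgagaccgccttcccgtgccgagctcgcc
Socs3: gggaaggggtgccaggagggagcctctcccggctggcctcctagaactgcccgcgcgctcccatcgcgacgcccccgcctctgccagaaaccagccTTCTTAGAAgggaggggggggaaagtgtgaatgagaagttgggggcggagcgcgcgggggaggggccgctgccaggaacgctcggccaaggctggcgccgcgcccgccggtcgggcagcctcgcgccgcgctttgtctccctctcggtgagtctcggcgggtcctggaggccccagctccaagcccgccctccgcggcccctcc
The matches in Cxcl1 lie in 1 overlapping stretch. Of 32851 RefSeq promoters, 4.51% held the NF-kB motif and 8.3% the STAT motif, and of 135 promoters found for 110 members, 3.7% and 5.19% did. A match describes the letters and not a bound site.

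By the gene lists for liver function, members were thinly spread. None of 10 analyzable clock genes, 39 ribosomal protein genes, 17 proteasome genes, 12 chaperones and unfolded protein response genes, 6 cell cycle genes, 3 sex-biased liver genes or 2 heat shock genes was a member. There were 3 of 26 genes of fatty acid synthesis, storage and oxidation (Fads1, Lpin1, Thrsp), 2 of 13 of cholesterol and bile acids (Cyp7a1 among them), 2 of 31 of xenobiotic metabolism (Cyp2j9, Fmo5), 1 of 28 of glucose and amino acid metabolism (Sdsl), 1 of 25 of oxidative phosphorylation (Uqcrh), 1 of 24 of acute phase, complement and coagulation (C8b), 1 of 21 of antigen presentation and interferon response (Usp18), 1 of 18 hepatocyte transcription factors and nuclear receptors (Rxrg) and 3 of 89 Zfp zinc finger genes (Zfp61, Zfp870, Zfp930). The corresponding share of all analyzable genes was 3.81%.

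A lower CC019 strain with a higher CC019 allele was found in 2 of the 3 members among the fatty acid genes and in both members among the cholesterol and bile acid genes, beside 102 of all 150 members. Cyp7a1, the rate-limiting enzyme of bile acid synthesis, had 17.6 to 262 CPM in CC019 inbreds (median 60.7) and 39.1 to 333 CPM in CC037 inbreds (median 101), and the CC019 allele was higher in all 14 F1s (S -0.49, A 0.30). The same held for Fads1, the delta-5 fatty acid desaturase, at 440.1 to 1203 CPM (median 854) and 902 to 1296 CPM (median 981), with S of -0.36 and A of 0.21. The strain ranges overlapped for both genes, while the allelic difference had the same sign in each hybrid.

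Pltp, the phospholipid transfer protein of plasma lipoproteins, and Scd2, a stearoyl-CoA desaturase, had large S with small A. Pltp had 12.9 to 85.0 CPM in CC019 inbreds (median 44.2) and 99.0 to 300.3 CPM in CC037 inbreds (median 176), without overlap, for an S of -1.93, and A was 0.21 with the CC019 allele higher in 10 of 14 F1s. Scd2 had 3.83 to 22.7 CPM (median 11.4) and 12.3 to 221 CPM (median 20.9), with S of -2.16 and A of 0.23. Thrsp, a thyroid hormone-responsive gene of lipogenesis, had S of -0.62 and A of 0.24, with 143 to 336 CPM (median 213) and 80.5 to 538 CPM (median 332).

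Of other metabolic members, Ldha, the lactate dehydrogenase A subunit, had 579.5 to 1378 CPM in CC019 inbreds (median 791) and 431 to 821 CPM in CC037 inbreds (median 579.8), with S of 0.55 and the CC037 allele higher in all 14 F1s (A -0.21). Fmo5, a flavin monooxygenase, had S of 0.34 and A of -0.33, and Cyp2j9, a cytochrome P450 of fatty acid epoxidation, had S of -0.36 and A of 0.32. Uqcrh, the hinge protein of respiratory complex III, had S of 0.33 and A of -0.24, again with 1 allelic sign in all 14 F1s. Sdsl, a serine dehydratase-like enzyme, had S of 0.67 and A of -0.35. C8b, the beta chain of complement component 8, had 50.6 to 518 CPM in CC019 inbreds (median 254) and 35.8 to 369 CPM in CC037 inbreds (median 123), while the CC037 allele was higher in all 14 F1s, at 26.1 to 245 CPM (median 57.9) against 7.28 to 177 CPM (median 24.9). Males lay above females in every group, and S of C8b was -0.18 in females and 0.65 in males.

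Of the members that mark cells other than hepatocytes, 3 were on the marker lists: Cd5l of Kupffer cells, Cd79a of B cells and Reln of stellate cells. In liver RNA fewer cells of a type and less RNA per cell cannot be told apart. Fcer1g, Fcgr4, Cd72, Igha, Dok3, Adamdec1 and Slfn5 were chosen after their values were seen. With Cd5l and Cd79a they formed 9 immune-cell members with a lower CC019 strain and a higher CC019 allele, a direction held by 102 of all 150 members. Nuggc, described above, ran the other way. In the fit with the clock gene score, which also averaged log2 values, S was positive for several of the 9. It was 0.15 for Cd5l, 0.17 for Fcgr4, 0.35 for Fcer1g, 0.93 for Igha and 1.64 for Cd72. With medians and without the score, S was 1.12 for Cd72 and negative for Cd5l, Fcgr4, Fcer1g and Igha. Without the 3 inbreds that stood apart S of Cd5l was 0.25. Cd5l had S of -0.22 and A of 0.41, and Fcgr4, an activating receptor for IgG, had S of -1.07 and A of 0.41. Cd72, a B cell coreceptor, had 1.19 to 3.73 CPM in CC019 inbreds (median 2.54) and 0.673 to 11.4 CPM in CC037 inbreds (median 1.14), so its CC037 mean of 3.69 CPM was the higher while its CC037 median was the lower. The 6 Kupffer and macrophage markers that are no members summed to 41.3 to 53.6 CPM in CC019 males, 163 to 372 CPM in CC019 females, 89.8 to 168 CPM in CC037 males and 156 to 502 CPM in CC037 females; their part in S was not tested.

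F1 totals were compared with the mean of the strains, a contrast that the rule did not use, by edgeR's quasi-likelihood test with Benjamini-Hochberg adjustment over all genes tested. Of 147 members with enough counts, 46 (31.3%) passed, with 33 higher and 13 lower in the F1s, against 29.8% of analyzable genes and 29.9% of all genes. With the clock gene score as a covariate 21 members passed. Nuggc, Hspb7 and Efhd1 were not tested for low counts. The upward share of members was 22.4%, against 14.5% of analyzable genes, and the downward share 8.84%, against 15.3% (15.5% and 14.4% of all genes). Mean F1 levels lay above both strain means in 65 members (43.3%; 41.5% of analyzable genes), between them in 60 (40.0%; 44.6%) and below both in 25 (16.7%; 13.9%), and with TMM-scaled CPM above both in 55.

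Wdhd1, a DNA-binding replication factor, had 0.493 to 1.35 CPM in CC019 inbreds (median 0.622), 0.911 to 1.44 CPM in CC037 inbreds (median 1.13) and 2.03 to 3.15 CPM in F1s (median 2.52). The F1 total was above that of every inbred, and the log2 difference from the strain mean was 1.33 ± 0.12 (SE, adjusted p = 5.32e-09, edgeR). Rasa2, a GTPase-activating protein of Ras, had 2.19 to 4.58 CPM (median 3.605), 1.87 to 3.65 CPM (median 2.58) and 4.68 to 9.57 CPM in F1s (median 5.65), for a log2 difference of 0.94 ± 0.08 (SE, adjusted p = 6.01e-09). Trim2, a ubiquitin ligase, and Nbeal2, a BEACH domain protein of granule biogenesis, rose by 0.50 and 0.66, and Rxrg, the retinoid X receptor gamma, by 0.31. The antisense transcript Gm10138 fell by 0.70. Cxcl1, Bcl3, Socs3 and Lpin1, which shared their highest inbred, were lower in F1s, with log2 differences of -1.54 for Cxcl1, -0.60 for Bcl3, -0.69 for Socs3 and -0.74 for Lpin1, and CC019 male 3 was among the inbreds they were set against.

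Sex was no part of the rule either. Females and males differed in 93 of 147 members, against 49.0% of analyzable genes and 47.1% of all genes (edgeR). Of these, 58 were higher in females (39.5%; 22.9% of analyzable and 23.1% of all genes) and 35 lower (23.8%; 26.1% and 24.0%). F2r, the thrombin receptor PAR1, had 7.18 to 16.4 CPM in 16 females (median 11.1) and 20.2 to 64.0 CPM in 13 males (median 34.1), without overlap, for a log2 difference of -1.86 ± 0.11 (adjusted p = 1.31e-12). C8b had 35.7 to 123 CPM in females (median 61.7) and 212 to 518 CPM in males (median 369), also without overlap (-2.51 ± 0.16, adjusted p = 7.68e-12). Trpm6 was higher in females at 0.655 to 7.17 CPM (median 2.45) against 0.126 to 0.673 CPM (median 0.290; 2.93 ± 0.23, adjusted p = 3.14e-10).

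Members of bile acid, lipid and other metabolism moved in both directions with sex. Cyp7a1 was higher in females by 1.99 ± 0.35, Fads1 by 0.32 ± 0.08 and Pltp by 0.88 ± 0.19 on the log2 scale, while Thrsp was lower by 1.19 ± 0.27, Fmo5 by 0.74 ± 0.10, Cyp2j9 by 0.74 ± 0.12, Sdsl by 0.46 ± 0.11 and Ldhd, the D-lactate dehydrogenase, by 0.67 ± 0.06. Rxrg was higher in females by 0.68 ± 0.06, and Usp18, a deconjugase of the interferon-induced modifier ISG15, by 1.58 ± 0.24. Sucnr1 and Fam149a were lower in females, by 1.10 ± 0.10 and 0.58 ± 0.05.

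All 9 immune-cell members named above were higher in females, from 0.69 ± 0.12 for Dok3 to 1.47 ± 0.27 for Cd72, with 1.46 ± 0.18 for Cd5l. The share higher in females was 39.5% of members tested and 22.9% of analyzable genes. Most of the 9 were chosen after their values were seen, so their number is not read as a result. Nuggc was not tested for sex because of low counts. The 6 Kupffer and macrophage markers that are no members summed to 156 to 502 CPM in females (median 186) and to 41.3 to 168 CPM in males (median 89.8), and the 2 B cell markers that are no members to 0.985 to 4.03 CPM and 0.129 to 2.27 CPM. The part of these cell types in the sex difference of the 9 genes was not tested.

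The strain difference itself changed with sex in 27 members (18.4%), against 23.0% of analyzable genes and 21.2% of all genes (edgeR, interaction of strain and sex). The interaction was positive in 17 members (11.5% of analyzable and 9.95% of all genes) and negative in 10 (11.5% and 11.3%). Rgl1, a guanine nucleotide exchange factor for Ral, had 17.9, 21.9 and 22.6 CPM in the 3 CC019 females and 5.28, 7.43 and 7.45 CPM in the 3 CC019 males, while CC037 females had 14.6 to 19.7 CPM and CC037 males 13.5 to 17.2 CPM. CC019 males lay under every other mouse while CC019 females overlapped the CC037 mice, with an interaction of 1.27 ± 0.21 (SE, adjusted p = 0.000313). Fam160b1, a FHIP family gene, had lower males in CC019 and higher males in CC037. It had 66.2, 69.3 and 71.5 CPM in CC019 females, 35.7, 42.8 and 58.7 CPM in CC019 males, 47.7 to 65.0 CPM in CC037 females and 70.3 to 102 CPM in CC037 males (0.83 ± 0.17, adjusted p = 0.00158).

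Fads1 also belonged to this group, with 1057 to 1203 CPM in the 3 CC019 females and 440.1 to 651 CPM in the 3 CC019 males, against 958 to 1296 CPM in CC037 females and 902 to 1128 CPM in CC037 males (0.77 ± 0.23, adjusted p = 0.0195). Its negative S was therefore that of males, at -0.94, against 0.04 in females. Gpalpp1 (0.45 ± 0.09), the unclassified transcript Gm38345 (1.24 ± 0.27) and Gm11437 (1.6 ± 0.37) passed as well, and so did Pltp (1.84 ± 0.52) and Tars2 (-0.52 ± 0.12). For Cxcl1 the interaction was -6.55 ± 1.18, with S of -2.16 in females and 4.08 in males, and it was -3.76 without CC019 male 3, -5.50 without CC037 female 3 and -2.90 without the 3 inbreds that stood apart. Without the 3 inbreds that stood apart, 14 members passed in place of 27.

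The allelic ratio within F1s differed between the sexes in 7 members (4.76%), against 2.19% of analyzable genes and 2.09% of all genes tested (edgeR on allelic counts with the mouse as a block, 8 females and 6 males). The ratio was higher in females in 2 (0.866% of analyzable and 0.825% of all genes) and lower in 5 (1.32% and 1.26%). For C8b the log2 ratio of CC019 to CC037 allele was -1.96 to -1.15 in females (median -1.43) and -0.79 to -0.43 in males (median -0.53), so that the CC037 allele led in both sexes and more so in females (difference -0.90 ± 0.11, adjusted p = 0.000334). For F2r the ratio was -0.52 to 0.73 in females (median -0.13) and 0.59 to 1.77 in males (median 1.53), a difference of -1.48 ± 0.21 (adjusted p = 0.00143). The CC019 allele of F2r gave 24.6 to 47.5 CPM in males and 4.24 to 9.35 CPM in females, and the CC037 allele 7.30 to 16.5 CPM and 4.97 to 9.50 CPM. The sex difference of F2r was thus larger on the CC019 allele, and its allelic difference was that of males.

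Sucnr1 had the opposite form, with a ratio of 0.93 to 1.73 in females (median 1.23) and 0.33 to 0.96 in males (median 0.57; difference 0.66 ± 0.12, adjusted p = 0.00735). Scd2 had ratios of 0.24 to 1.18 in females (median 0.54) and -0.65 to 0.18 in males (median -0.30; 0.96 ± 0.16, adjusted p = 0.00498), so its alleles were ordered differently in the sexes. Galc, the lysosomal galactosylceramidase, had -0.17 to 0.45 in females (median 0.20) and 0.60 to 1.43 in males (median 0.97; -0.81 ± 0.15, adjusted p = 0.00785). Inhba, the activin A subunit, and Pltp also leaned more to the CC019 allele in males, by 0.51 ± 0.11 and 0.33 ± 0.08 (adjusted p = 0.0316 and 0.0409).

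**Figure D4:**
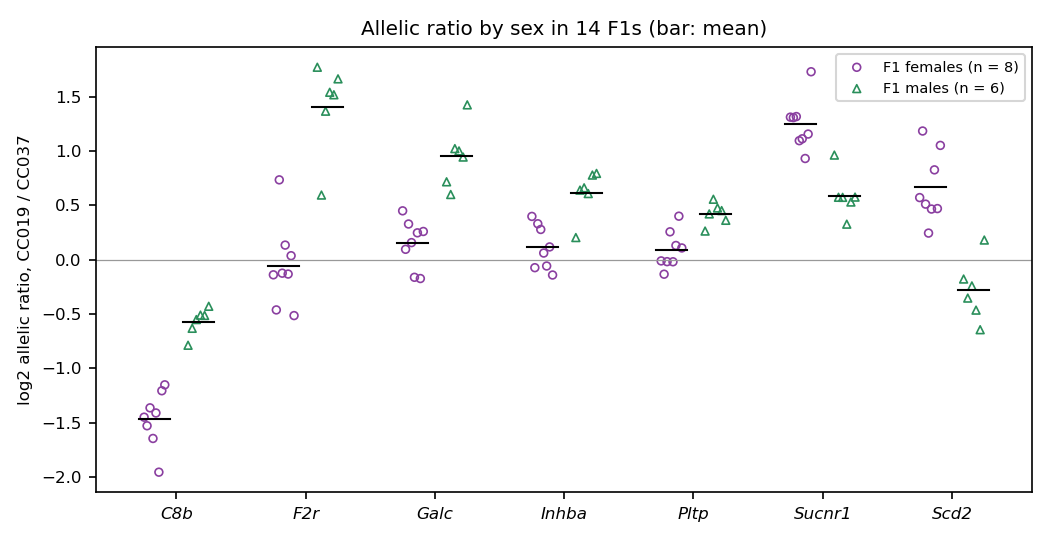
Log2 ratio of CC019 to CC037 allele CPM in each of 14 F1s for the 7 members whose ratio differed between the sexes (circles 8 females, triangles 6 males; bars are means; 0 marks equal alleles). For C8b, Galc and Scd2 the ranges of the sexes do not overlap, and for Scd2 the female mean is above 0 and the male mean below.

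Between cross directions the allelic ratio of no member passed the threshold in edgeR, against 0.178% of analyzable genes (0.127% up and 0.051% down) and 0.17% of all genes tested (0.121% and 0.0485%). At an unadjusted p under 0.05 there were 11 of 147 members, and DESeq2 called 2. The shares of all genes are not given for these counts, so neither is read as a result about the members.

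Total levels differed between the reciprocal F1s in 24 members (16.3%), against 13.2% of analyzable genes and 12.5% of all genes (edgeR). In CC019/TauUnc x CC037/TauUnc 12 were higher (7.03% of analyzable and 7.23% of all genes) and 12 lower (6.17% and 5.27%). Rragd, a Rag GTPase that regulates mTORC1, had 9.02, 16.5 and 24.1 CPM in the 3 CC019/TauUnc x CC037/TauUnc females and 1.05 to 2.97 CPM in every other F1, for a log2 difference of 1.81 ± 0.28 (adjusted p = 0.000318). Nupr1, a stress-induced nuclear protein, had 3.18, 40.5 and 57.3 CPM in the same 3 females and 0.348 to 1.64 CPM in the other F1s (3.16 ± 0.70, adjusted p = 0.00619). Samd4, an RNA-binding repressor of translation, had 8.18, 12.1 and 13.2 CPM in these females, against 3.94 to 8.36 CPM in the rest (0.76 ± 0.16, adjusted p = 0.00436). In the inbreds the highest Nupr1 value, 38.3 CPM, was that of CC019 female 2, which also carried the pancreas markers, while those markers summed to 6.29 to 22.1 CPM in the F1 females. The summed level of 7 stellate cell and fibroblast markers, Reln among them, was 379 to 1076 CPM in the 3 CC019/TauUnc x CC037/TauUnc females and 214 to 308 CPM in the 5 reciprocal females. Female 1 held the 1076 CPM, and females 2 and 4 had 447 and 379 CPM. The marker Des alone reached 527 CPM, above the whole sum of any other F1. The part of these markers in the differences was not tested.

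Sucnr1 was lower in CC019/TauUnc x CC037/TauUnc F1s, at 11.6, 12.7 and 17.4 CPM in females and 37.8, 43.1 and 51.0 CPM in males, than in the reciprocal cross, at 21.8 to 38.9 CPM in 5 females and 67.3, 68.2 and 73.8 CPM in 3 males (-0.93 ± 0.15, adjusted p = 0.000638). Within each sex the crosses did not overlap. 1810008I18Rik had 15.5, 19.5 and 40.2 CPM in CC019/TauUnc x CC037/TauUnc females and 73.1 to 126 CPM in the 5 reciprocal females, while males had 92.3 to 99.0 CPM and 99.8 to 129.6 CPM (-1.13 ± 0.20, adjusted p = 0.00146). Zfp870, a zinc finger gene, was lower by 0.52 ± 0.11 (adjusted p = 0.00608). The clock gene score was 1.495 to 3.28 in the 3 CC019/TauUnc x CC037/TauUnc males and -3.29 to -1.42 over the F1s of the reciprocal cross, so that in males the score and the cross cannot be told apart. The 3 CC019/TauUnc x CC037/TauUnc females had scores of -2.04 to -1.66, within the range of the reciprocal cross. Leaving out single F1s moved the count of 24 members to between 9 and 28.

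Transcripts of a member did not always follow the gene. The transcript with the most counts kept both signs in 135 members (90%), against 81.1% of analyzable genes and 94.3% of the genes of matching sign. For Fam149a it did not: transcript Fam149a-203 had 9.99 to 14.5 CPM in CC019 inbreds and 22.8 to 42.7 CPM in CC037 inbreds, and its CC019 copy gave 5.55 to 12.1 CPM in F1s against 11.02 to 22.4 CPM from the CC037 copy. Its differences were -1.40 and -1.02, of the same sign. Fam149a-202 had nearly equal totals in the strains (-0.05), with medians of 17.6 and 18.1 CPM, and its copies stood at 11.05 to 24.2 CPM and 1.94 to 4.23 CPM in F1s, a difference of 2.47. The gene value adds both transcripts, so its S followed Fam149a-203 and its A followed Fam149a-202.

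In several other members, among them Pxdc1, Wdhd1 and Rasa2, a transcript was counted in inbreds and not on that copy in F1s, or the reverse. The CC037 copy of Pxdc1-203, a transcript annotated for nonsense-mediated decay, was listed at 0 in every F1 although CC037 inbreds had 18.8 to 49.2 CPM (median 31.6), and the CC019 copy stood at 32.6 to 62.2 CPM (median 39.6). Pxdc1-202, the coding transcript, had 28.3 to 73.6 CPM from the CC019 copy and 9.09 to 27.5 CPM from the CC037 copy. Wdhd1-201 was listed at 0 in all 15 inbreds and had 0.768 to 2.15 CPM (median 1.52) on the CC019 copy of the F1s. Wdhd1-204 had means of 0.412 CPM in CC019 and 1.07 CPM in CC037 inbreds. Its F1 copies had means of 0.116 CPM (CC019) and 0.186 CPM (CC037). The differences of Wdhd1-204 were thus -1.28 and -0.51, of the same sign, unlike those of the gene. Rasa2-203, which retains an intron, had at most 0.191 CPM in any inbred and 2.13 to 3.23 CPM (median 2.52) on the CC037 copy of the F1s, while the copies of Rasa2-201 overlapped at 0.696 to 2.47 CPM and 0.755 to 4.12 CPM. Wdhd1 and Rasa2 are the genes described above whose F1 totals lay above every inbred. A copy near 0 (under 0.1 CPM) was found in 2 members (1.33%; 1.09% of analyzable genes) and a transcript seen in F1s alone in 1 (0.667%; 0.178%).

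**Figure D5:**
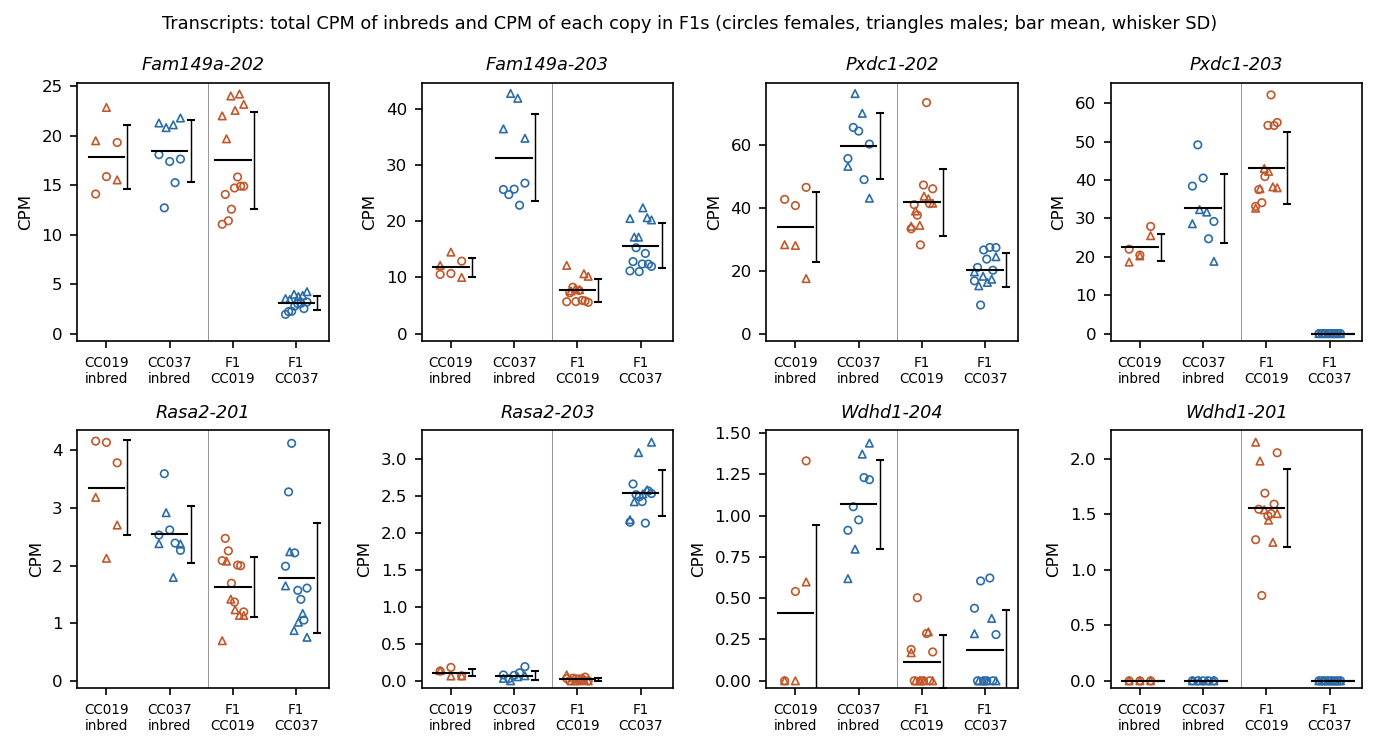
Total CPM of inbreds and CPM of each copy in F1s for 8 transcripts of 4 members (linear axes; circles females, triangles males; bars are means and whiskers SD). The CC037 copy of Pxdc1-203 lies at 0 in all F1s, and Wdhd1-201 and Rasa2-203 rise above 0.2 CPM on 1 copy of the F1s alone.

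The share of a gene's counts taken by each transcript differed between the inbred strains in 15 of 71 members with several transcripts (21.1%), against 22.6% of analyzable genes and 16.9% of all genes (edgeR, gene-level F test on transcript counts). With Simes-adjusted values of single transcripts there were 11 (15.5%), against 10.4% of analyzable genes and 7.93% of all genes. Both forms of the test left the uncertainty of the estimated transcript counts unmodelled. Ldha (F test adjusted p = 3.62e-18) had transcript Ldha-201 at 8.81 to 19.4 CPM in CC019 inbreds and at 0.187 to 0.532 CPM in CC037 inbreds. The leading transcript Ldha-202 had 561 to 1329.6 CPM and 429 to 817 CPM. In F1s, however, Ldha-201 stood at only 0 to 1.96 CPM on the CC019 copy (median 0.132) and at 0 on the CC037 copy. Adi1, an enzyme of methionine salvage (adjusted p = 8.00e-17), had Adi1-202 at 14.8 to 32.5 CPM in CC019 inbreds and 0.0680 to 0.592 CPM in CC037 inbreds, and in F1s at 22.2 to 43.2 CPM on the CC019 copy and 0 to 0.787 CPM on the CC037 copy. Its leading transcript Adi1-201 had nearly equal strains (0.07) and a higher CC037 copy (-1.31). Mthfsd, Cd72, Rgl1, Zfp930, Fam160b1, Ecm1, Fads1, Fam149a and Tmem106b passed both forms of the test, and Pllp, Plekhm2, Depp1 and Fmo5 the F test alone.

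Members lay on every autosome but chromosome 16, which had 37 analyzable genes. Their share was highest on chromosome 13, at 7.3% (10 of 137), against 3.81% of all analyzable genes. Neighbouring pairs of members, chosen after their values were seen, included Cdt1 and Aprt, 1.08 kb apart on chromosome 8 with the same direction (S 0.54 and 0.27), and Ubxn2b and Cyp7a1, 43.9 kb apart on chromosome 4 with the same direction (S -0.47 and -0.49). Ecm1 and Tars2, the closest pair, ran in opposite directions. Hbb-bt, a beta globin gene with a near-identical neighbour, was also a member chosen after its values were seen (S -0.27, A 0.38) whose counts may be shared with that copy and are uncertain.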

How the data were processed

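Liver RNA of 30 mice was analysed. Per the labels and the study's methods, the authors aligned reads with Salmon 1.9.0 to a transcriptome holding both strain genomes and imported expected counts by gene and allele, which they deposited with expected counts and TPM of each transcript (TPM not used here). Samples were grouped by the labels, and 29 mice were used. Counts were divided by each mouse's total to give CPM. Totals and allelic counts were rounded and tested with edgeR 4.0.16 (R 4.3.3; quasi-likelihood, TMM for totals, none for alleles, Benjamini-Hochberg over all genes tested, threshold 0.05). Genes needed 0.5 CPM in most mice. Transcripts were assigned by GENCODE M21. P-values measure the spread between mice. The tests were checked on simulated counts, on which the gene-level isoform test made more false calls than its threshold allows, so Simes values were added. Alternatives were DESeq2 1.42.0, other scalings, filters, splits by sex and cross, the clock score and leaving out single mice. Members and gene lists were chosen with earlier results of these data known. Named genes were the 10 members per direction with the largest smaller difference, those with separated strains and a single allelic sign, up to 6 per test, members of the lists and edge genes, unless said otherwise. Multi-mapping reads between near-identical copies or alleles are divided by estimation, which can shift allelic values. Some members are not reported here.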

Additional observations from a re-analysis of the deposited data

Results flagged for a closer look

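In 9 of 88 groups tested, 1 mouse stood apart from the rest of its group, where chance alone gives about 1 in 20, but the members were chosen on levels in these same mice, so the number is not read against that rate. CC019 male 3 stood apart for Bcl3 (117 CPM), Lpin1 (476 CPM) and Socs3 (65.1 CPM), and CC037 female 3 for Cxcl1 (33.8 CPM). CC037 female 1 stood apart for Cacna2d1 (7.31 CPM) and Rragd (5.86 CPM), and CC019 female 3 for Wdhd1 (1.35 CPM). For the log2 allelic ratio, 1 CC019/TauUnc x CC037/TauUnc female (replicate 2) stood apart for Gcnt4 (-3.73) and 1 male of that cross (replicate 2) for Rragd (-0.64).

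The strain difference depended on sex, by the test of the interaction, for Cxcl1 (-6.55, and -2.90 without the 3 inbreds that stood apart), Gm11437 (1.6), Rgl1 (1.27), Gm38345 (1.24), Fam160b1 (0.83) and Gpalpp1 (0.45), each as females minus males on the log2 scale. The allelic ratio differed between F1 females and males for F2r (-1.48), Scd2 (0.96), C8b (-0.90), Galc (-0.81), Sucnr1 (0.66) and Inhba (-0.51).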

How the results depend on the processing

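The number of members was 420 with a limit of 0.1 in place of 0.2 and 13 with 0.5, 326 in males alone, 271 with the clock score as a covariate, and 130 to 180 when single mice were left out. Of the 150 members, 93 stayed within the rule with the clock score, 84 with medians in place of means, 61 in females alone and 98 in males alone. For S and A the fit with the clock score also averaged log2 values, and the 2 changes were not told apart. Members whose F1 totals differed from the strains numbered 21 with the clock score and 39 to 56 without single mice. For the strain difference by sex the count was 17 without a filter, 14 without the 3 inbreds that stood apart and 18 to 32 without single mice. For reciprocal F1s it was 12 with a replicate block and 9 to 28 without single mice. It fell to 9, 14 and 12 without males 1, 2 and 3 and to 15 without female 5 of CC037/TauUnc x CC019/TauUnc, and to 10 without male 3 and 14 without female 2 or female 4 of the other cross. Allelic ratios by cross gave 2 with DESeq2, 1 with all 15 F1s and 0 to 1 without single mice. Other counts ran from 87 to 100 for sex, 5 to 8 for allelic ratios by sex and 13 to 16 for isoform usage. Replicate numbers did not pair the mice (35 pairs, correlation -0.32 to 0.49, median -0.01), and the block gave 44, 26, 88 and 12 members for F1 totals, strain by sex, sex and isoform usage. Of the named test values, 220 kept direction and call under other settings and 1 lost its call, and 770 kept both and 10 lost the call when single mice were left out.

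Some signs of S and A turned, and the cause was not tested. Values given with the clock score also rest on averaged log2 values. With medians in place of means S was -0.12 for Bcl3, 0.25 for Cacna2d1, 1.12 for Cd72, 0.35 for F2r, -0.98 for Lpin1, 0.24 for Usp18 and 1.26 for Hspb7, and A was -0.12 for Cd79a, 0.11 for Nupr1 and -0.44 for Rragd. In females alone S was -0.17 for Bcl3, -0.18 for C8b, -2.16 for Cxcl1, 0.26 for Cyp2j9, 0.11 for F2r, 0.036 for Fads1, 0.21 for Fam160b1, -0.10 for Fmo5, 0.26 for Galc, -0.10 for Gcnt4, 0.013 for Lacc1, -1.50 for Lpin1, 0.043 for Pxylp1, 0.24 for Rgl1 and -0.10 for Socs3, and A was -0.051 for F2r and -0.018 for Thrsp. In males alone S was 0.92 for Cd72, -0.56 for Gm38345, -0.57 for Trpm6 and 0.24 for Usp18, and A was 0.020 for Gcnt4 and -0.34 for Scd2. With the clock score S was 1.02 for Cacna2d1, 0.15 for Cd5l, 1.64 for Cd72, 0.35 for Fcer1g, 0.17 for Fcgr4, 2.86 for Hspb7, 0.93 for Igha, -0.31 for Gm38345, 0.13 for Lacc1 and 0.84 for Usp18, and A was 0.0097 for Nupr1, -0.074 for Rragd and 0.26 for Trpm6. A was 0.20 for Gm38345 in CC019/TauUnc x CC037/TauUnc alone, and -0.045 for Pxylp1 and -0.49 for Rragd in the other cross. Without the 3 inbreds that stood apart S was 0.25 for Cd5l, 0.12 for Hbb-bt, -0.57 for Lpin1, -0.83 for Pfkfb3, -0.19 for Socs3 and 0.15 for Usp18. When single mice were left out, S ran from -0.066 to 0.69 for Bcl3, -0.65 to 2.71 for Cxcl1, -0.020 to 0.69 for Gcnt4, -0.91 to 0.69 for Lpin1 and -0.27 to 0.56 for Socs3, each lowest without CC019 male 3, and from -0.0042 (without CC019 female 2) to 0.36 for Zfp61, -0.87 to 0.30 (without CC037 female 1) for Cacna2d1 and -0.48 to 0.042 (without CC037 female 3) for Usp18. Without CC037 female 3 it was also positive for Cd5l, at 0.14.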
